A study of Homo sapiens with 4 samples.

Results

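Accessibility at 9 regulators and markers of epithelial-mesenchymal transition (EMT) was followed in single-nucleus chromatin accessibility data: the transcription factors ZEB1, ZEB2, SNAI1, SNAI2 and TWIST1, the mesenchymal structural genes VIM and FN1, and the cadherins CDH1 and CDH2. They were taken as a named list, 9 of 19974 protein-coding genes, and each was given every peak that overlapped the gene or lay within 20 kb of it on GRCh38. The cells are Panc1, a human pancreatic ductal carcinoma line, from transplanted mice. Whether every barcode came from a Panc1 nucleus and not from the mouse host was not tested. The Carrier group holds mice 12 and 31, and the Inflachromene group holds mice 11 and 35. Inflachromene is a small molecule that binds HMGB1 and HMGB2. Each mouse gave 1 library, named here by group and mouse number. The sources used here do not give dose, duration, mouse strain or age, and all 4 libraries come from mice that carried 1 cell line.

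In EMT, epithelial cells lose junctions and polarity and gain motility. ZEB and SNAI proteins are zinc-finger repressors that bind E-boxes, among them those of the CDH1 promoter, and recruit CtBP and histone-modifying complexes, while TWIST1 is a basic helix-loop-helix factor. MicroRNAs of the miR-200 family target ZEB1 and ZEB2 messages, and ZEB proteins in turn repress the genes of those microRNAs. Panc1 is commonly described as a line with mesenchymal features.

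Sequencing depth ran from 27088391 counts in Inflachromene 11 to 39947056 in Inflachromene 35, over 2039 to 5186 barcodes a library. Deep barcodes, those with at least 2000 counts, numbered 939 to 2070 per library, and the shallower ones held 1.74% to 4.37% of counts. Carrier 12 and Inflachromene 11 shared 1209 barcode sequences, 29.7% of the smaller set, but no pair of libraries shared more than 10 that were deep in both. Of markers fixed for other cell types, a promoter region was present for 4 of 9 fibroblast, 5 of 8 myeloid, 1 of 7 endothelial and 1 of 5 T and NK genes, and for none of the B, acinar, endocrine and Schwann genes. Of the 9 pancreatic carcinoma markers, 5 had one: KRT8, KRT18, KRT19, EPCAM and MUC1. As background, 12785 of all 19974 protein-coding genes had a promoter region. Cell identity was not tested with these marker counts.

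Promoters of FN1, CDH2 and ZEB2 are printed first, as the 250 bases before the RefSeq start site (GRCh38.p14), 5′ to 3′ on the gene's strand. They are shown because the windows lie in regions open in all 4 libraries and differ widely in composition. Some windows of ZEB1 also lie in such regions and are not printed in full. FN1, at chr2:215436069-215436318 on the minus strand, has a GC content of 76.4%. Its cAMP response element is in capitals.
FN1: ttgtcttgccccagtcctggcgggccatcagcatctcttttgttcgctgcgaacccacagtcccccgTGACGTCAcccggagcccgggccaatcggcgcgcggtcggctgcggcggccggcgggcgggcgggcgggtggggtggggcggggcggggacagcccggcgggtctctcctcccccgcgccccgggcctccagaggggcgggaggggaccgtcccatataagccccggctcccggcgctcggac
CDH2, at chr18:28177131-28177380 on the minus strand, has a GC content of 66%.
CDH2: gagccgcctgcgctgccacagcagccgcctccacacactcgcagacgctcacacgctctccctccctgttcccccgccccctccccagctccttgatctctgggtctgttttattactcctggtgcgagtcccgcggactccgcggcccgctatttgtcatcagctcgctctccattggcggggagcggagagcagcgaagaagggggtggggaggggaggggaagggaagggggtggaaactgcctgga
ZEB2, at chr2:144520120-144520369 on the minus strand, has a GC content of 48%, against a median of 62% over 15812 promoters.
ZEB2: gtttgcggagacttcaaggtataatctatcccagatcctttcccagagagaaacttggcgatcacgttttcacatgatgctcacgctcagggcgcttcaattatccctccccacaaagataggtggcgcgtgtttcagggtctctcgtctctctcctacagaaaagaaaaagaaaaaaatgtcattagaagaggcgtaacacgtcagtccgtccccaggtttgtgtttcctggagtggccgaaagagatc

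The search covered 5 motifs on both strands of these windows. The E-box bound by ZEB and SNAI factors (CACCTG) is in 17.1% of all promoters, the GC box (GGGCGG) in 55.8%, the TATA box (TATAAA) in 9.36%, the AP-1 element (TGANTCA) in 5.003% and the cAMP response element (TGACGTCA) in 2.29%. The FN1 window holds 6 GC boxes, some of which overlap each other, and 1 cAMP response element at -183 to -176 from the start. No E-box was found in the windows of FN1, CDH2, ZEB2 or VIM. ZEB1, with 7 start sites in the table, holds 3: 1 before the start at 31318417 and 2 before the start at 31319216. The window before 31319216 lies in a region open in all 4 libraries, and the window before 31318417 does not. The 3 E-boxes are shown with their neighbours, E-box or its reverse complement in capitals. By sequence they are the sites a ZEB1 or SNAI protein could recognise in these windows.
ZEB1, start 31318417, -57 to -52: gaggtgacagCAGGTGagggccgggt
ZEB1, start 31319216, -242 to -237: ccccaccaCACCTGaggaaaactt
ZEB1, start 31319216, -85 to -80: tgtcgtaaacCAGGTGcggtggggag

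Peaks were merged across libraries into 128195 regions, and 103 of these lay near the 9 genes. A peak was present in all 4 libraries in 39 of them (37.9%), against 39.6% of all merged regions, and only those 39 consensus regions can be compared by counts. CDH1 had 9 consensus regions, VIM 6, CDH2 5, ZEB1, ZEB2, SNAI2 and FN1 4 each, and SNAI1 3. TWIST1 had 0, as did 13.9% of protein-coding genes. The median over all genes was 3 per window.

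The accessibility near TWIST1 was the most limited of the list. Its window held 3 merged regions, and no Carrier library had a peak in any of them. Inflachromene 35 had a peak at chr7:19114053-19114944 with 75 counts, Inflachromene 11 had one at chr7:19117211-19118003 with 41, and both had one at chr7:19121658-19122559 with 59 and 70 counts. A library with no peak has no deposited count there, so the Carrier level is unknown rather than 0.

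Over the list, 7 merged regions (6.80%) had a peak in both Inflachromene libraries and in neither Carrier library, against 3.64% of all merged regions. They lay near ZEB2 (3), ZEB1 (2), SNAI1 (1) and TWIST1 (1). The reverse pattern was seen once, near CDH2 (0.971%, against 1.60% of all). The number of regions with a peak near the 9 genes was 59 in each Carrier library, 67 in Inflachromene 11 and 72 in Inflachromene 35, which was also the deepest library with 96240 peaks against 75717 to 78639 in the others. The part of depth in this difference was not tested.

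**Figure D1:**
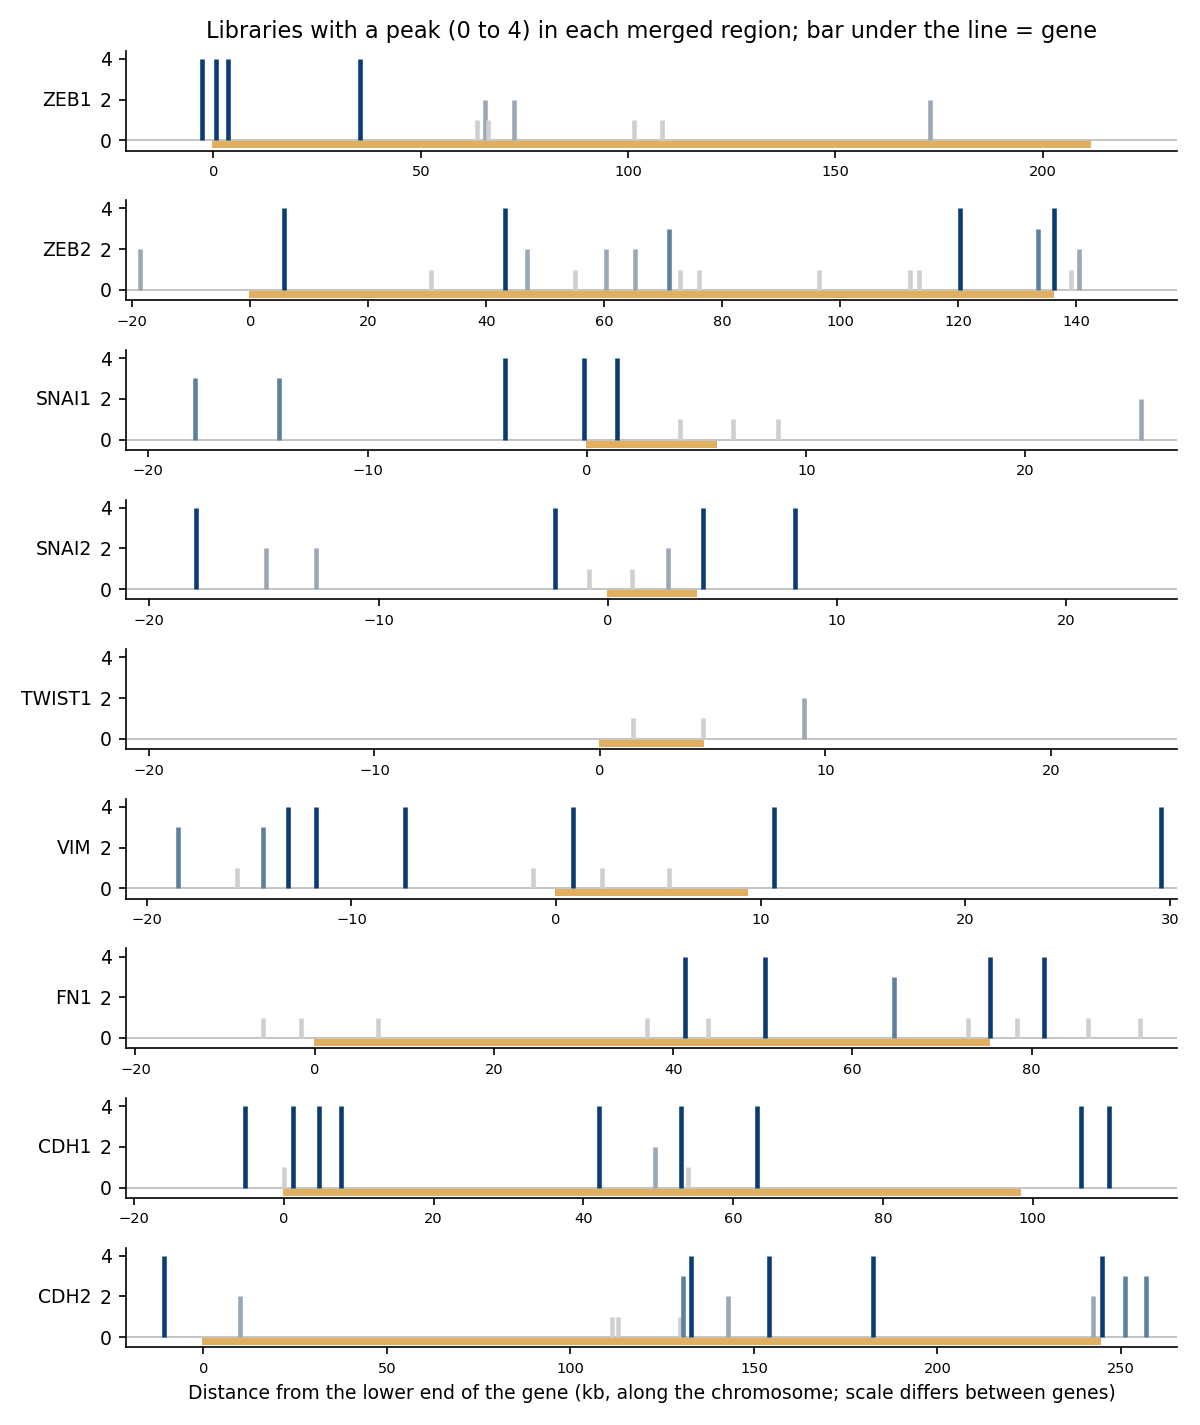
Merged regions near each gene, placed by distance in kb from the lower end of the gene along the chromosome; line height is the number of libraries with a peak, and the bar under the line is the gene. Regions with a peak in all 4 libraries reach the top, and TWIST1 has none.

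VIM, which encodes the intermediate filament vimentin, had the most accessible promoter of the list. Levels are given as CPM, counts in the region scaled to the library's total in consensus regions after TMM normalization; levels within clusters use the cluster's own total without TMM. Its region at chr10:17228320-17229793, beginning 79 bp after the RefSeq start, had 85.5 and 90.4 CPM in Carrier 12 and 31, and 88.8 and 85.9 in Inflachromene 11 and 35. The values of the groups interleave, and the region stood at the 98.2 percentile of all consensus regions. A second VIM region, chr10:17238506-17239324, downstream of the gene, had 44.6, 34.2, 32.8 and 36.8 CPM in the same order.

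SNAI2 and FN1 followed. The SNAI2 promoter region, chr8:48921245-48922220, had 48.7 and 49.5 CPM in Carrier and 51.1 and 47.1 in Inflachromene. FN1, which encodes the matrix protein fibronectin, had 44.7, 49.4, 45.5 and 46.7 CPM at chr2:215435734-215436734, the region that holds the GC-rich window printed above. In both genes the groups overlapped. SNAI1 had 31.5 and 38.9 CPM in Carrier against 40.9 and 36.5 in Inflachromene at chr20:49982373-49983277. ZEB1 had 19.2, 24.1, 22.7 and 21.7 CPM at chr10:31318478-31319394.

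CDH2, N-cadherin, had 17.4, 25.7, 28.7 and 17.96 CPM at chr18:28176668-28178632, so 1 library of each group was high and 1 low. The bases called as peak there were 1034 in Carrier 12 and 1582, 1671 and 1733 in the other libraries, and its part in these levels was not tested. ZEB2 and CDH1 were lowest. ZEB2 had 8.51, 8.14, 9.48 and 8.38 CPM at chr2:144519857-144520737. CDH1, E-cadherin, had 7.94 and 6.31 CPM in Carrier and 7.36 and 4.58 in Inflachromene at chr16:68738062-68739075. This region lies inside the gene, 770 bp from its lower end along the chromosome. A peak over that end itself, chr16:68736903-68737724, was called in Carrier 12 only, with 106 counts. The CDH1 promoter region compared here therefore does not cover that end.

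Per kb of region, the promoter levels ran from VIM (59.5 CPM per kb) through SNAI2 (50.3), FN1 (46.6), SNAI1 (40.8), ZEB1 (23.9), CDH2 (11.4) and ZEB2 (9.79) to CDH1 (6.46). Neighbours in this order were not all apart: the FN1 libraries reached 49.4 CPM and the lowest SNAI2 library was at 47.1.

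**Figure D2:**
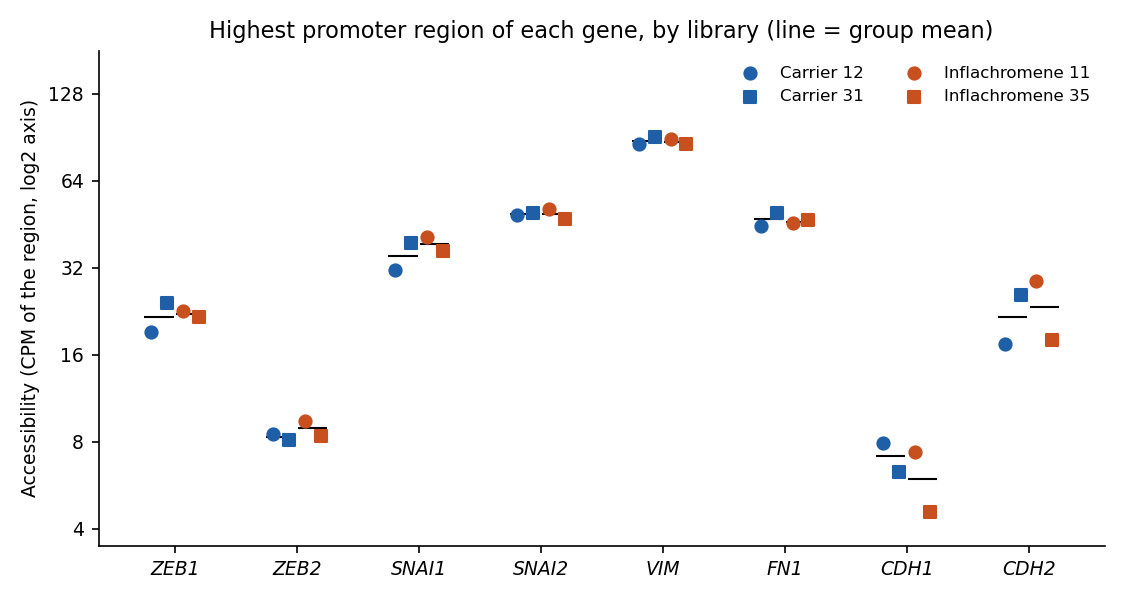
CPM of the highest promoter region of each gene on a log2 axis, with 1 point per library and a line at each group mean. VIM lies between 85.5 and 90.4 in all 4 libraries, and CDH1 is lowest at 4.58 to 7.94.

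The treatment comparison asked whether accessibility near these genes differed between Inflachromene and Carrier. By edgeR's quasi-likelihood test, with Benjamini-Hochberg adjusted p under 0.05 as the threshold, 0 of the 39 regions passed (background 0% of 50771 regions), and DESeq2 called 0 of the 31 it tested (background 0.0638%). One region had an unadjusted p under 0.05, against 4.48% of all regions. The log2 fold changes were above 0 in 18 regions and below 0 in 21, with a median of -0.01 against 0.01 over all regions. Groups did not overlap in 8 of 39 regions, 3 higher (background 14.0%) and 5 lower (background 17.5%) with Inflachromene, against 31.5% of all regions in either direction. The 95% interval lay between -0.5 and 0.5 in 8 of 39 regions, against 22.2% of all.

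Sums over each gene and its 20 kb flanks, and sums over promoter regions, gave the same picture. None of 8 gene sums and none of 8 promoters passed (background 0% for both), and none had an unadjusted p under 0.05 (background 5.02% and 5.85%). DESeq2 called 0 of 8 in each (background 0.0756% and 0.196%). In all 8 genes the groups overlapped in both measures (no overlap in 33.0% and 34.4% of all genes; Inflachromene was higher in 16.8% and 17.2%, and lower in 16.2% and 17.1%). For log2 fold changes, the 95% interval was between -0.5 and 0.5 for all 8 gene sums (81.0% of all) and for 6 of 8 promoters (81.7% of all), the exceptions being ZEB2 and CDH1. The promoter log2 fold change of VIM was -0.05 (95% interval -0.22 to 0.12), that of FN1 -0.07 (-0.27 to 0.14), that of SNAI1 0.04 (-0.15 to 0.22) and that of SNAI2 -0.05 (-0.23 to 0.14). ZEB1 was at -0.05 (-0.30 to 0.20), CDH2 at 0.06 (-0.36 to 0.49), ZEB2 at 0.05 (-0.42 to 0.52) and CDH1 at -0.33 (-0.94 to 0.28). Every adjusted p of these 8 promoters was at least 0.936 by edgeR. With 2 libraries a group, p-values rest only on the spread between these 4 mice. Part of the estimate of that spread was shared by edgeR across all regions, gene sums or promoters tested.

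**Figure D3:**
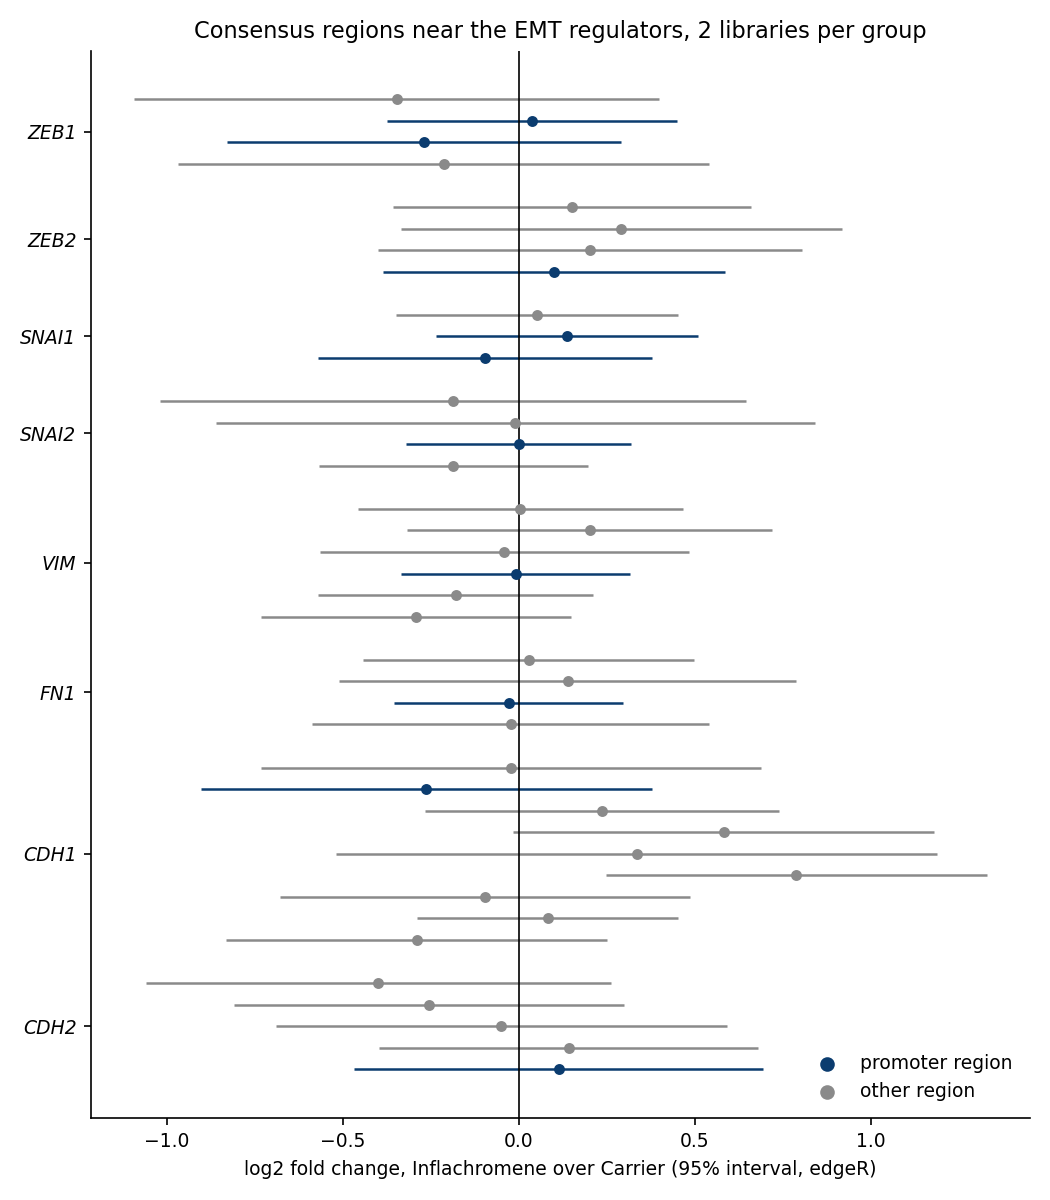
log2 fold change of Inflachromene over Carrier, with 95% intervals from edgeR, for the 39 consensus regions in order along each gene; promoter regions are dark. Intervals of all regions but 1, in CDH1, include 0.

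CDH1 gave both the smallest p and the most unusual region of the list. At chr16:68789820-68790868, inside the gene, the level was 3.48 and 3.59 CPM in Carrier and 6.35 and 5.88 in Inflachromene. The groups did not overlap, and the log2 fold change was 0.79 ± 0.24 (SE), with an unadjusted p of 0.0089 and an adjusted p of 1.00 by edgeR. In the barcodes of clusters 1 and 2, the largest pair in Carrier, the log2 fold change was -0.011. A region nearby, chr16:68744470-68745376, had 3.64, 5.16, 6.05 and 7.08 CPM and a log2 fold change of 0.58 ± 0.27 (adjusted p = 1.00 by edgeR).

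The highest CDH1 region, chr16:68778945-68779906, lay 41653 bp inside the gene. It had 24.1 and 39.0 CPM in Carrier and 58.0 and 21.8 in Inflachromene, so the 2 Inflachromene libraries were the highest and the lowest of the 4. Of its counts, 61.7% came from shallow barcodes and 25.1% from a single small cluster of deep barcodes (cluster 9), together 86.8% against a median of 2.22% over all consensus regions. Only 0.260% of consensus regions had over 50% of counts there, and among the 39 it was the only one, the next highest being at 20.4%. Shallow barcodes gave 86.8%, 72.2% and 78.3% of its counts in Carrier 12, Inflachromene 11 and Inflachromene 35, whereas in Carrier 31 they gave 17.8% and cluster 9 gave 70%. Among deep barcodes outside cluster 9 its level was 2.96, 4.86, 8.10 and 3.48 CPM. Without Inflachromene 35, the log2 fold change was 0.87, and that of the CDH1 gene sum was 0.37. That setting leaves 1 Inflachromene library, so it has no spread within that group. The next highest region, at 20.4%, was the ZEB2 promoter region. Among deep barcodes outside cluster 9 it had 7.89 and 6.39 CPM in Carrier and 6.19 and 7.52 in Inflachromene. Inflachromene 11 was thus its highest library over all barcodes and its lowest here.

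Cluster 9 held 194 barcodes. Carrier 31 gave 129 of them, Inflachromene 11 gave 53, Inflachromene 35 gave 10 and Carrier 12 only 2. Clusters had been built on chromosomes without any of the 9 genes. The CDH1 region had 2621, 1987, 1799 and 2123 CPM in cluster 9 of the 4 libraries, against 2.64, 3.38, 4.64 and 3.55 in clusters 1 and 2. In cluster 9, 89.2% of barcodes had a count there. In clusters 1 and 2, 1.84% (exact 95% interval 1.24% to 2.63%) to 4.30% (2.43% to 6.99%) of barcodes did. The surrounding 10 Mb window was 1.36 to 2.04 times as high in cluster 9 as in clusters 1 and 2. The promoter region of ZEB2 was also higher in cluster 9 of the 2 libraries with counts there, at 100.2 CPM in Carrier 31 and 148 in Inflachromene 11, against 5.81 and 6.92 in clusters 1 and 2; its 10 Mb window was 6.04 and 5.22 times as high. Carrier 12 and Inflachromene 35 had 0 counts there, of 4579 and 20729 in their cluster 9. A second ZEB1 promoter region, chr10:31321351-31322386, had 50.1 and 37.1 CPM in cluster 9 of the same 2 libraries against 3.27 and 4.73, from 18 and 4 counts, with its window at 0.779 and 0.760. VIM at chr10:17216072-17216929 had 55.7 and 111 against 21.1 and 14.7. The VIM promoter region had 108.6 and 148.4 CPM against 89.6 and 95.3, from 39 and 16 counts in cluster 9. Promoter regions of SNAI2 and SNAI1 were lower in cluster 9 of these libraries. SNAI2 had 5.57 and 18.6 CPM, from 2 counts each, against 53.2 and 55.4. SNAI1 at chr20:49982373-49983277 had 16.7 and 0 against 41.1 and 38.7. ZEB1 at chr10:31318478-31319394 had 94.6 and 18.6 against 23.4 and 22.5, so the libraries differed in direction. The share of all regions higher or lower in cluster 9 was not taken. Cluster 9 barcodes had median counts of 2042 to 2892, far under those of their libraries, and the cluster was given no cell type name. Whether its barcodes are human or mouse was not tested. Promoters held 68.8% of its consensus counts, against 53.3% in clusters 1 and 2. Carrier 31 gave 359255 of its 492379 counts. With libraries pooled, summed marker levels were 305 CPM in cluster 9 against 101 in clusters 1 and 2 for myeloid genes. They were 14.2 against 6.14 for endothelial, 93.4 against 155 for fibroblast, 4.06 against 7.93 for T and NK, and 38.6 against 119 for carcinoma genes. Their part in the CDH1 and ZEB2 levels was not tested.

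Clusters 3, 4 and 5 were each compared with clusters 1 and 2, and clusters 6, 7, 8 and 10 were not compared. Clusters 1 and 2 held 76.1% of the deep barcodes of Carrier 12 but 37.2% of those of Carrier 31, and 45.7% and 36.4% of those of Inflachromene 11 and 35. In Carrier 31 and Inflachromene 35 the single largest cluster was another one, cluster 8 and cluster 5. In cluster 3, with 99 to 438 barcodes per library, the FN1 promoter had 11.03, 19.9, 18.4 and 25.7 CPM, against 52.2, 59.99, 65.5 and 57.5 in clusters 1 and 2. That is a mean 3.24-fold lower level (3.05-fold with counts pooled over libraries), seen in all 4 libraries. The 10 Mb window around it was at 0.666 to 0.854 of its level in clusters 1 and 2. A second FN1 region, chr2:215410622-215411546, was a mean 2.63-fold lower but only when libraries were weighted equally: counts pooled over libraries gave a log2 ratio of -0.94, short of 2-fold. Lower or higher here means the same direction in all 4 libraries and a mean of at least 2-fold. Of 14973 regions on the chromosomes of the 9 genes, 2.54% were lower and 1.11% higher by this rule in cluster 3; of the 39, 2 were lower and 0 higher.

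Clusters 4 and 5 held only 13 and 3 barcodes in Carrier 31, and their values rest mainly on 1 or 2 libraries. In cluster 4, 6 of the 39 regions were lower by the rule (background 5.62%) and 1 was higher (background 4.45%). The largest mean fold was at SNAI2 chr8:48914825-48915805, 5.23-fold lower on average and 6.84-fold with counts pooled. It had 1.62, 4.49, 0 and 1.15 CPM, from 3, 2, 0 and 9 counts, against 9.53, 10.1, 6.01 and 10.2. The 10 Mb window around it was at 0.736, 0.976, 0.970 and 0.826 of its level in clusters 1 and 2. The others that were lower were a second SNAI2 region at chr8:48898921-48900347, FN1 at chr2:215401717-215402658, ZEB1 at chr10:31321351-31322386 and CDH2 at chr18:28086502-28087435 and chr18:28114851-28115787. The CDH2 regions rest on 8 and 18 counts over the 4 libraries, and each of the SNAI2 regions on 14. The lowest log2 ratios of these CDH2 regions were in Inflachromene 35, at -3.94 and -3.25. With 0.5 added to each count, the first was at 0.22 in Carrier 31 and the second at 0.13 in Inflachromene 11. In Inflachromene 35 the other CDH2 regions were low too, at -6.45, -4.22 and, for the promoter, -2.77. The cause was not tested. The pooled log2 ratio of the ZEB1 region, -0.998, fell short of 2-fold, and Carrier 31 and Inflachromene 11 had 0 counts there. CDH1 at chr16:68744470-68745376 was higher, 2.19-fold on average and 2.12-fold pooled. In cluster 5, 1 region was lower, the CDH2 promoter (background 5.46%), with a pooled log2 ratio of -0.60, and 0 were higher (background 3.93%). These are descriptions without a test.

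**Figure D4:**
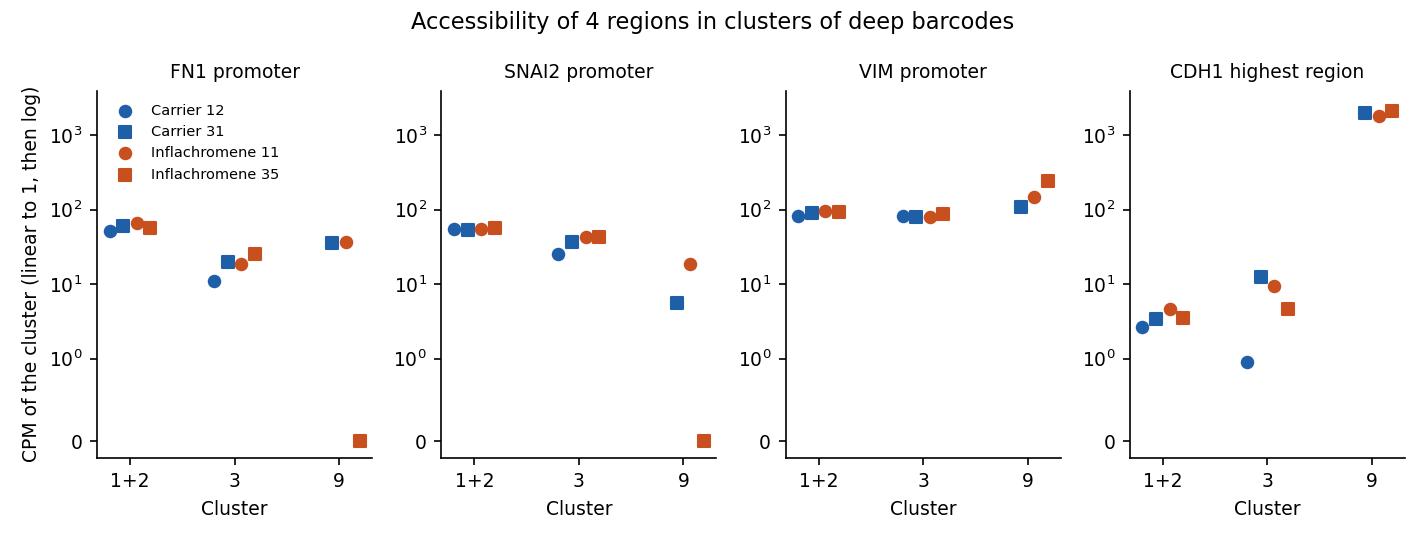
CPM of 4 regions in clusters 1 and 2, cluster 3 and cluster 9, by library, on an axis that is linear to 1 and logarithmic above; libraries with under 20000 counts in a cluster are not drawn. The FN1 promoter is lower in cluster 3, and the CDH1 region is near 2000 CPM in cluster 9.

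The share of deep barcodes with a count at a promoter was compared after each barcode was thinned to 2000 counts. FN1 had 6.86% and 6.82% in Carrier and 6.27% and 6.26% in Inflachromene. ZEB1 had 4.30% and 6.07% against 3.59% and 3.83%. These were the 2 of 8 genes whose groups did not overlap (background 24.8%), and in both the exact permutation p was 0.333, the smallest that 2 against 2 libraries can give. Thinned to 5000 counts, the genes without overlap were SNAI2, FN1 and CDH1 (background 20.2%). Without thinning it was CDH1 alone (background 7.31%). ZEB1 thus overlapped in both settings and FN1 in the second. The exact 95% intervals of the FN1 shares, such as 5.81% to 8.04% in Carrier 12 and 5.25% to 7.40% in Inflachromene 35, overlapped. VIM was highest with 12.6%, 14.6%, 14.4% and 12.8%, and CDH1 lowest with 1.30%, 0.319%, 1.11% and 0.680%. The median over all promoters was 6.48%. These intervals cover counting error only.

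No other gene of the pathway lists passed the test. Promoter regions were measured for 15 of 18 other EMT transcription factors, 24 of 30 mesenchymal genes, 26 of 37 epithelial genes, all 14 corepressors and partners of ZEB and SNAI, and all 11 TGF-beta inputs, and 0 passed in any list. Log2 fold changes were above 0 in 9 of 15, 10 of 24, 13 of 26, 8 of 14 and 5 of 11, with list medians of 0.04, -0.05, -0.0042, 0.03 and -0.01 against -0.00091 over all promoters. Groups did not overlap in 14 of the 24 mesenchymal genes, 7 higher and 7 lower with Inflachromene, and in 2, 5, 3 and 2 genes of the other lists in the order above (34.4% of all promoters). The smallest unadjusted p-values among mesenchymal genes were those of LOX, a collagen cross-linking enzyme (64.8 and 55.8 CPM in Carrier, 47.2 and 46.7 in Inflachromene, log2 fold change -0.36, adjusted p = 0.73 by edgeR), and CD44, a hyaluronan receptor (45.8 and 41.5 against 54.8 and 56.8, log2 fold change 0.36, adjusted p = 0.73 by edgeR). Among epithelial genes KLF4 had 33.8 and 38.2 against 43.9 and 50.8 CPM (log2 fold change 0.40, adjusted p = 0.74 by edgeR). TGFBR2, a TGF-beta receptor, had 88.2 and 92.9 against 94.4 and 132 CPM (log2 fold change 0.33, adjusted p = 0.80 by edgeR). These CPM are on the promoter scale. Epithelial genes without a consensus promoter region included ESRP1, GRHL2, OVOL1, CDH3 and DSP.

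The microRNA genes that target ZEB and SNAI messages were looked up by position. The 3p strands of the miR-200 family are printed with the seed, bases 2 to 8, in capitals, because the family splits into 2 seeds.
hsa-miR-200b-3p: uAAUACUGccugguaaugauga
hsa-miR-200c-3p: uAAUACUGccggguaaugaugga
hsa-miR-429: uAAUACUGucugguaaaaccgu
hsa-miR-200a-3p: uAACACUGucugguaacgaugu
hsa-miR-141-3p: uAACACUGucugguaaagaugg
The nearest consensus region lay 1044 bp from MIR200C and 619 bp from MIR141, at chr12:6964810-6965835. It had 13.7 and 13.5 CPM in Carrier and 13.2 and 11.03 in Inflachromene, with a log2 fold change of -0.17 ± 0.20 (SE; adjusted p = 1.00 by edgeR). MIR200B and MIR429 had their nearest consensus region 9000 and 10901 bp away, but peaks called in fewer libraries lay closer, at 1339 bp from MIR200B and over MIR429 itself. MIR205 had no consensus region within 20 kb.

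By promoter profile over the 4 libraries, the gene most like ZEB1 was MRPL45 (mean absolute log2 CPM difference 0.02), and that most like VIM was STIL (0.023). SNAI2 was closest to TEX264 (0.01), FN1 to PARP1 (0.013), SNAI1 to CYB5D2 (0.011), ZEB2 to HSD17B7 (0.033), CDH2 to POU6F1 (0.063) and CDH1 to C1orf115 (0.078). Each is the best match among nearly all measured promoters, so a close match would be found for almost any gene. The measure depends on the level as well as its pattern over libraries, and shared regulation was not tested.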

How the data were processed

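Single-nucleus ATAC libraries were prepared with a 10x kit (per the labels' protocols). GRCh38, Cell Ranger ARC and Cell Ranger ATAC 2.1.0 are listed in the submitters' processing notes, without settings or roles. The authors deposited, per library, peak positions and whole-number counts per peak and barcode, not normalized. Between 82.4% and 84.9% of entries above 0 were even. The 9 genes and the gene lists were chosen with earlier results of these data known.

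Overlapping peaks were merged over libraries, and regions with a peak in all 4 (50771) were tested on counts summed over all barcodes, so nuclei are not replicates. Sums use each library's own peaks and move with the width called. Promoters were regions within 1000 bp of RefSeq start sites (15812 genes) or, for genes without one in the table (4162, among them SNAI1, SNAI2, TWIST1 and CDH1), of either outer gene end. Tests used edgeR 4.0.16 (TMM, quasi-likelihood, filterByExpr) across all regions, gene sums or promoters, with DESeq2 1.42.0 as an alternative, and were tested on simulated data. Other normalizations, filters, barcode sets, windows and leaving out each library were tried. Deep barcodes were clustered (30 components, 15 neighbours, leidenalg 0.10.2 at resolution 0.5). No doublet caller was run; removing barcodes over 3 times the median was tried. Cluster ratios used a pseudocount of 0.5. Their average was first pooled over libraries and then, after values had been seen, weighted equally by library; the report says where a call needs equal weights. The direction in each library was taken from CPM without the pseudocount. Named regions were each gene's promoters, its highest other region and the 3 others with the smallest p.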

Additional observations from a re-analysis of the deposited data

How the results depend on the processing

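No paired analysis was possible because the mouse numbers are not shared between the groups. No alternative other than leaving out a library made any of the 9 genes' regions, gene sums or promoters pass. Leaving out 1 library gave 0 to 1 regions, 0 to 1 gene sums and 0 promoters past the threshold; both calls, in CDH1, came without Inflachromene 35. That setting leaves 1 Inflachromene library, assumed to vary like the others, and calls 299 regions and 127 gene sums in the whole table. Regions with a peak in all 4 libraries numbered 39, and between 29 and 39 under the stricter overlap and count minimum. Genes whose shares of barcodes did not overlap numbered 2 (background 24.8%), 3 when thinned to 5000 (20.2%) and 1 when not thinned (7.31%). With 1 library left out they numbered 3 to 7, but the share over all promoters was not taken there. Of 48 log2 fold changes, 5 kept their sign in every alternative. The cause was not tested. The alternatives on shared barcodes and on cluster 9 were chosen after seeing the data; the first turned no value. Under the alternative "only deep barcodes", the log2 fold change turned for CDH1 gene sum (-0.030), CDH1 chr16:68778945-68779906 (-0.74), FN1 chr2:215401717-215402658 (-0.033), ZEB2 promoter (-0.11), ZEB2 chr2:144519857-144520737 (-0.082). Under the alternative "only clusters 1 and 2", the log2 fold change turned for CDH1 gene sum (-0.084), CDH1 chr16:68738062-68739075 (0.059), CDH1 chr16:68789820-68790868 (-0.011), CDH2 gene sum (0.10), FN1 gene sum (0.034), FN1 promoter (0.077), FN1 chr2:215401717-215402658 (-0.075), FN1 chr2:215410622-215411546 (-0.37), FN1 chr2:215435734-215436734 (0.16), FN1 chr2:215441702-215442780 (0.29), SNAI1 chr20:49983828-49984841 (0.086), SNAI2 chr8:48921245-48922220 (0.066), SNAI2 chr8:48925300-48926227 (0.022), VIM gene sum (0.0072), VIM promoter (0.076), VIM chr10:17228320-17229793 (0.16), ZEB1 promoter (0.064), ZEB1 chr10:31321351-31322386 (0.040), ZEB2 chr2:144426758-144427719 (-0.39). Under the alternative "5000 counts, thinned to 5000", the difference in points turned for CDH1 share (-0.99), CDH2 share (-0.049), SNAI2 share (-0.76), VIM share (-1.84). Under the alternative "not thinned", the difference in points turned for CDH1 share (-2.22), CDH2 share (-2.54), SNAI2 share (-5.98), VIM share (-5.26). Under the alternative "gene body only", the log2 fold change turned for CDH2 gene sum (0.012). Under the alternative "barcodes with a count in place of counts", the log2 fold change turned for FN1 gene sum (0.011), FN1 chr2:215435734-215436734 (0.039), SNAI2 chr8:48921245-48922220 (0.051), VIM promoter (0.055), VIM chr10:17228320-17229793 (0.12). Under the alternative "gene and 100 kb either side", the log2 fold change turned for FN1 gene sum (0.023). Under the alternative "only deep barcodes outside cluster 9", the log2 fold change turned for FN1 chr2:215401717-215402658 (-0.038), ZEB2 promoter (-0.060), ZEB2 chr2:144519857-144520737 (-0.020). Under the alternative "offset for 10 Mb windows", the log2 fold change turned for SNAI1 chr20:49978773-49979722 (-0.0045), ZEB2 gene sum (-0.074), ZEB2 promoter (-0.14), ZEB2 chr2:144389334-144390295 (-0.083), ZEB2 chr2:144503929-144504869 (-0.036), ZEB2 chr2:144519857-144520737 (-0.14). Under the alternative "DESeq2", the log2 fold change turned for SNAI2 chr8:48914825-48915805 (0.0032), SNAI2 chr8:48921245-48922220 (0.012), VIM chr10:17228320-17229793 (0.0042). Under the alternative "RLE size factors", the log2 fold change turned for SNAI2 chr8:48914825-48915805 (0.0085), SNAI2 chr8:48921245-48922220 (0.013), VIM chr10:17228320-17229793 (0.0042). Under the alternative "very high barcodes removed", the log2 fold change turned for SNAI2 chr8:48921245-48922220 (0.0012). With 1 library left out, values that turned ranged as follows: CDH1 gene sum -0.077 to 0.37, CDH1 chr16:68738062-68739075 -0.64 to 0.036, CDH1 chr16:68778945-68779906 -0.53 to 0.87, CDH1 share -0.41 to 0.58, CDH2 gene sum -0.12 to 0.058, CDH2 promoter -0.20 to 0.29, CDH2 chr18:27921649-27922587 -0.72 to 0.024, CDH2 chr18:28114851-28115787 -0.0067 to 0.26, CDH2 chr18:28176668-28178632 -0.26 to 0.42, CDH2 share -0.28 to 1.31, FN1 gene sum -0.14 to 0.094, FN1 promoter -0.18 to 0.038, FN1 chr2:215410622-215411546 -0.35 to 0.48, FN1 chr2:215435734-215436734 -0.091 to 0.044, FN1 chr2:215441702-215442780 -0.18 to 0.16, SNAI1 gene sum -0.016 to 0.11, SNAI1 promoter -0.023 to 0.10, SNAI1 chr20:49978773-49979722 -0.095 to 0.18, SNAI1 chr20:49982373-49983277 -0.00068 to 0.30, SNAI1 chr20:49983828-49984841 -0.26 to 0.050, SNAI1 share -1.08 to 0.33, SNAI2 gene sum -0.19 to 0.014, SNAI2 promoter -0.10 to 0.015, SNAI2 chr8:48898921-48900347 -0.80 to 0.25, SNAI2 chr8:48914825-48915805 -0.91 to 0.52, SNAI2 chr8:48921245-48922220 -0.060 to 0.048, SNAI2 share -0.63 to 1.59, VIM gene sum -0.17 to 0.050, VIM promoter -0.12 to 0.012, VIM chr10:17216072-17216929 -0.22 to 0.52, VIM chr10:17228320-17229793 -0.043 to 0.032, VIM chr10:17238506-17239324 -0.36 to 0.034, VIM share -0.96 to 1.06, ZEB1 gene sum -0.28 to 0.038, ZEB1 chr10:31315204-31316135 -1.01 to 0.084, ZEB1 chr10:31318478-31319394 -0.11 to 0.21, ZEB1 chr10:31353321-31354241 -0.82 to 0.18, ZEB2 promoter -0.047 to 0.16, ZEB2 chr2:144389334-144390295 -0.046 to 0.31, ZEB2 chr2:144426758-144427719 -0.033 to 0.53, ZEB2 chr2:144503929-144504869 -0.056 to 0.42, ZEB2 share -1.32 to 0.29.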
